A study of Mus musculus with 20 samples.

Results

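The 9 genes described here, Tgfb2, Tgfbi, Thbs1, Ccn1, Ccn2, Tnc, Tagln, Acta2 and Cnn1, belong to the transforming growth factor beta (TGF-beta) system, to the matricellular proteins and to the contractile apparatus. They were chosen by name, with earlier results of these data known, and are 9 of the 18820 genes tested. Each was read through the probe set of the array that carries its symbol alone. Each had 1 such probe set, so no choice between probe sets of a gene was needed. Their mRNA was measured in mouse hypothalamic cell lines with and without serotonin.

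TGF-beta ligands are secreted bound to a latency peptide and act, once released, through a pair of receptor kinases and the SMAD transcription factors. Matricellular proteins such as thrombospondins, tenascins and the CCN family are secreted into the matrix and alter how cells adhere and respond to growth factors. Genes of the actin contractile apparatus are classical targets of serum response factor (SRF) with its myocardin-related coactivators, and CCN genes are known targets of YAP and TAZ acting through TEAD factors. In the brain several of these genes are best known from vessel walls, astrocytes, fibroblasts and injury, not from resting neurons.

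Total RNA of 2 mouse hypothalamic lines, mHypoE-46 (E46 below, labelled serotonin sensitive) and mHypoA-2/12 (A2/12, labelled serotonin unresponsive), was measured on 20 arrays in 5 groups of 4. E46 cells were left as controls or exposed for 24 h to serotonin labelled 100 or labelled 1 µg/ml, and A2/12 cells were left as controls or exposed for 24 h to the labelled 100. All 5 groups, controls included, had been kept in medium without serum for 4 h first, and each line is a single commercial immortalised line. The study followed the appetite peptide Npy, as part of work on food intake in mice with tumours. For the E46 serotonin arrays another label gives the doses crossed, so that the doses here are those of the titles. No label states that arrays of one group stem from separate cultures, so the p-values cover the spread between these arrays, which may be technical, and with 4 arrays a group the precision is limited.

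Levels are log2 values, group values are means ± SD over 4 arrays, and changes are log2 differences ± SE with 4 arrays a group. Changes count as called where limma's adjusted p was below 0.05, with Benjamini-Hochberg adjustment over all 18820 genes, and the words rose and fell are kept for called changes. The level under which 95% of odorant and pheromone receptor genes lay was used as a background. It was 4.38 in E46 controls, 4.45 and 4.66 in E46 with serotonin labelled 100 and 1, 4.36 in A2/12 controls and 4.35 in A2/12 with serotonin. Any pair of arrays correlated between 0.933 and 0.998. In the E46 group labelled 100, the change on each array was set against the mean change of the other 3 arrays, with the 9 genes left out. Only genes whose mean change in those 3 was at least 1 on the log2 scale were used. As a fitted slope, replicate 1 showed 80.5% of the change of the other 3 arrays (1309 genes). Each of those showed 99.2 to 111%, with replicate 1 among the arrays it was set against. Of 13 measured neuron markers, 7 lay above background in both controls, among them Map2 and Stmn2, while Rbfox3 (4.17 in E46 and 4.18 in A2/12 controls) and Snap25 (4.12 and 4.14) did not. Of 8 smooth muscle markers, 6 lay above background in both controls, with Myh11 at 4.73 and 4.64 and its regulator Myocd below background at 3.25 and 3.28. Of 9 fibroblast markers, 7 lay above background in every group, including Pdgfrb (12.26 and 12.53 in the controls) and Col1a1 (11.72 and 11.59).

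With serotonin labelled 100, 7 of the 9 genes changed in each line, but not the same way. In E46 all 7 fell, led by Thbs1 (6.61-fold), Ccn2, Tagln and Acta2. In A2/12, 5 fell, led by Tgfbi (17.7-fold) and Tgfb2 (7.58-fold), while Tnc rose 3.48-fold and Tagln rose 1.19-fold. Ccn1 and Cnn1 were called in neither line. Large parts of the array changed too: 39.6% of all genes were called in E46 (19.3% lower and 20.3% higher) and 45.9% in A2/12 (21.1% lower and 24.8% higher). The median change of the 9 genes was -1.14 in E46 and -0.65 in A2/12, against -0.00 and 0.00 over all genes. Since the 9 genes were chosen with earlier results of these data known, this contrast is a description and not a test. Of the calls over all genes 51.3% were higher in E46 and 54.0% in A2/12. With each array centred on its median these shares were 66.4% and 68.8% and the median change of all genes was 0.12 and 0.16, but each of the 9 genes kept its direction wherever it was called.

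**Figure D1:**
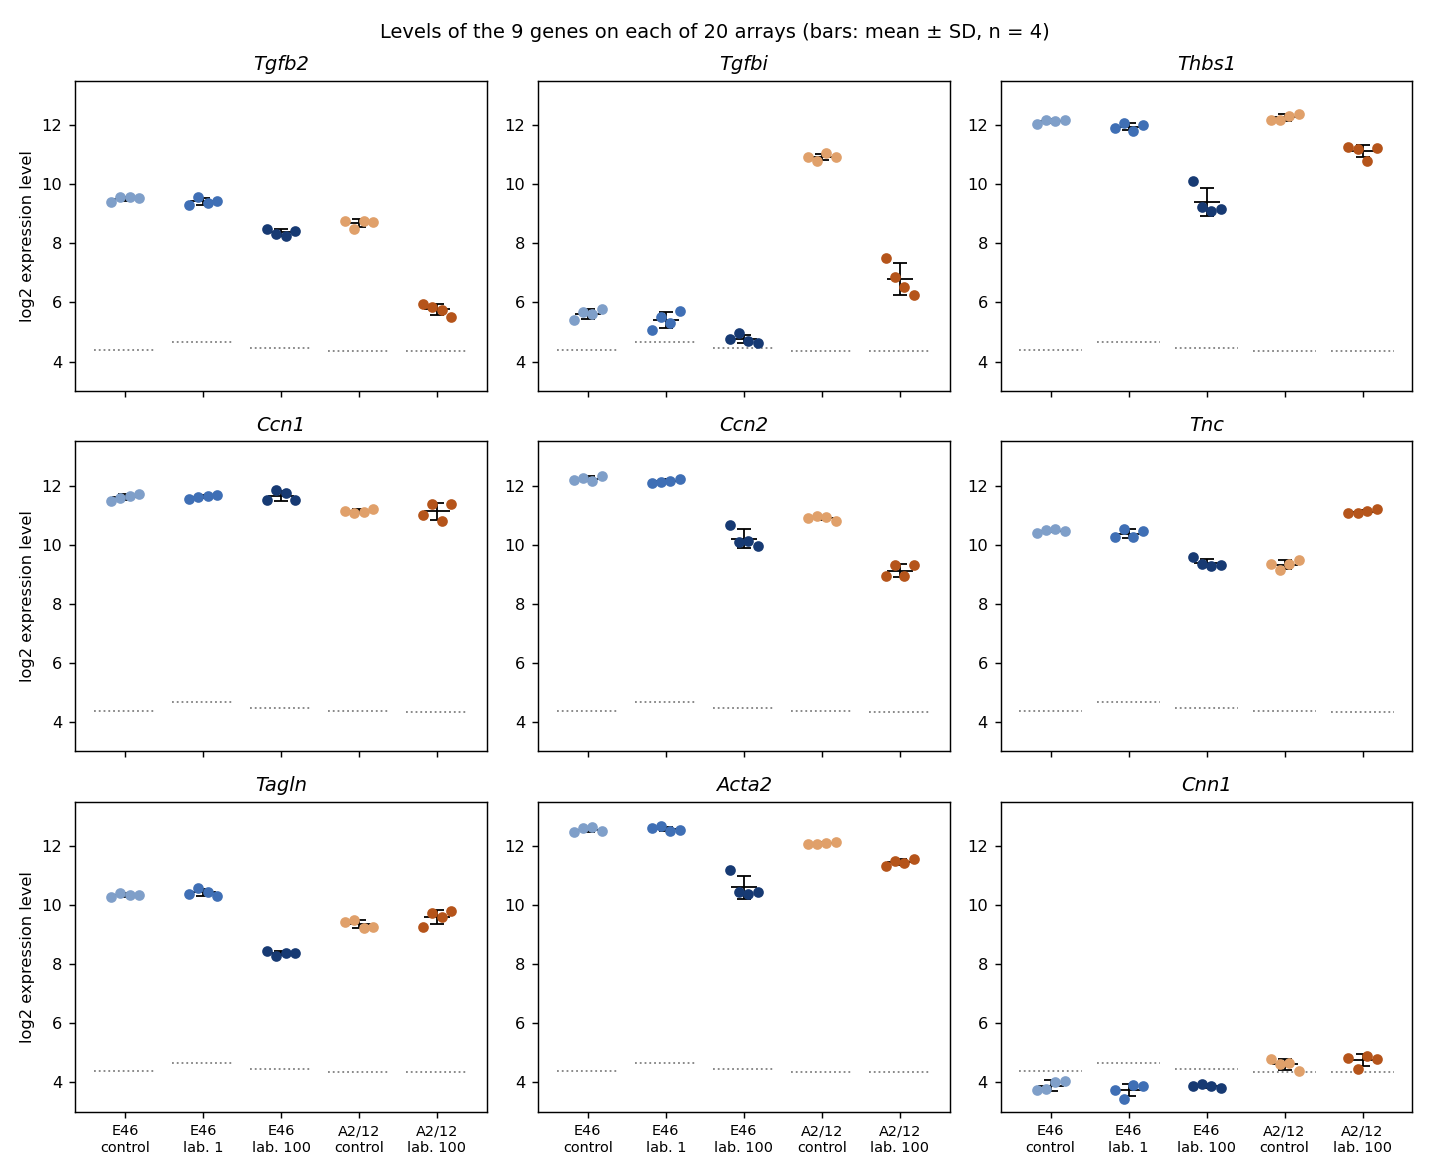
Log2 level of each of the 9 genes on each of 20 arrays, by group; each point is 1 array, black bars are group means ± SD (n = 4) and the dotted line is the receptor gene background of the group. In E46 with serotonin labelled 100 the points of 7 genes lie below all control points, while in A2/12 with serotonin Tnc lies above all its control points.

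Tgfb2 encodes a ligand of the TGF-beta receptors and is made by many cells of the developing and adult brain. The promoter of Tgfb2 is shown because the ligand was the only one among the 9 genes. It is the stretch of 250 bases before the start that RefSeq's promoter table uses for the gene, 5′ to 3′ on the minus strand (GRCm38.p6, chr1:186705990-186706239), with capitals for CAGAC, the core letters of a SMAD binding motif, on either strand.
Tgfb2: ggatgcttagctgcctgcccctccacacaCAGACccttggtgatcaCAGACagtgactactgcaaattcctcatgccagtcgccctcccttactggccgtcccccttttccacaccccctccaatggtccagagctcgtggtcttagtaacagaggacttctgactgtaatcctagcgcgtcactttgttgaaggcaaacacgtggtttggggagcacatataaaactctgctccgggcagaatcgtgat
This window lies inside the gene's outermost annotated span, so the start used is not the most upstream one. It held CAGAC at 221 and 204 bases before that start. In all, 42.2% of 32851 mouse promoters of the same length hold these letters on either strand, so a match is common.

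The gene itself lies on chromosome 1 (chr1:186622787-186709697, RefSeq GRCm38.p6). The E46 control arrays gave Tgfb2 levels of 9.42, 9.57, 9.56 and 9.52, and those with serotonin labelled 100 gave 8.49, 8.32, 8.25 and 8.43. In A2/12 the controls were at 8.76, 8.49, 8.75 and 8.74 and the serotonin arrays at 5.96, 5.84, 5.75 and 5.50. The groups did not overlap in either line, and the A2/12 serotonin arrays held the 4 lowest values of the series. Tgfb2 fell by 1.14 ± 0.09 in E46 (adjusted p = 2.72e-09, limma) and by 2.92 ± 0.09 in A2/12 (adjusted p = 4.54e-15, limma). The response in A2/12 was larger by 1.78 ± 0.13 (adjusted p = 2.94e-09 for the difference, limma). From high to low the group means ran from E46 controls (9.52 ± 0.07) and E46 labelled 1 (9.42 ± 0.12), whose arrays overlapped, through A2/12 controls (8.69 ± 0.13) and E46 labelled 100 (8.37 ± 0.11), which overlapped in part, to A2/12 labelled 100 (5.76 ± 0.20).

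Tgfbi, the TGF-beta induced matrix protein that binds integrins and collagen (chr13:56609586-56639359, RefSeq GRCm38.p6), was mainly a gene of A2/12. Its A2/12 control arrays lay at 10.91, 10.80, 11.07 and 10.93, and its E46 control arrays at 5.39, 5.69, 5.61 and 5.77. The A2/12 controls were higher by 5.31 ± 0.19, or 39.8-fold. With serotonin the A2/12 arrays were at 7.50, 6.87, 6.53 and 6.24, all below the controls but still above every E46 array. The fall of 4.15 ± 0.19 (adjusted p = 2.04e-13, limma) ranked 16 from the lowest of all 18820 genes in A2/12. In E46 the arrays labelled 100 gave 4.75, 4.96, 4.71 and 4.63, near the background of 4.45, and the fall was 0.85 ± 0.19 (adjusted p = 0.000792, limma). Changes that end near the background are compressed on this scale. The difference of the responses was -3.29 ± 0.26 (adjusted p = 8.96e-09, limma).

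Thbs1 encodes thrombospondin-1, a matricellular protein known to release TGF-beta from its latency peptide (chr2:118111876-118127133, RefSeq GRCm38.p6). Its control levels were close in the lines. The E46 controls gave 12.03, 12.18, 12.14 and 12.18, and the A2/12 controls 12.17, 12.18, 12.33 and 12.40, a difference of 0.14 that was not called (adjusted p = 0.554, limma). With serotonin labelled 100 the E46 arrays were at 10.12, 9.25, 9.10 and 9.16, and the A2/12 arrays at 11.25, 11.20, 10.81 and 11.22. All serotonin arrays lay below all controls of their line, and every E46 serotonin array lay below every A2/12 serotonin array. The fall in E46 was 2.73 ± 0.16 (adjusted p = 2.71e-11, limma), rank 30 from the lowest of 18820, and that in A2/12 was 1.15 ± 0.16 (adjusted p = 2.92e-06, limma). The response of A2/12 was the smaller by 1.57 ± 0.22 (adjusted p = 1.85e-05, limma). Replicate 1 of the E46 arrays was the highest of its 4, and without it the change was -2.96.

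Ccn2, connective tissue growth factor, is a matricellular protein induced by TGF-beta and by YAP with TEAD (chr10:24595442-24598683, RefSeq GRCm38.p6). The E46 controls read 12.19, 12.25, 12.15 and 12.34 for Ccn2, and the arrays labelled 100 read 10.66, 10.09, 10.12 and 9.95. The A2/12 controls read 10.92, 10.98, 10.93 and 10.79, lower than E46 by 1.33, and the serotonin arrays 8.95, 9.32, 8.93 and 9.30. No group overlapped with another apart from E46 controls with E46 labelled 1. The falls were 2.03 ± 0.12 in E46 (adjusted p = 3.26e-11, limma) and 1.78 ± 0.12 in A2/12 (adjusted p = 7.03e-11, limma). Ccn2 was the only one of the 7 genes called in E46 whose 2 responses were not called different: the difference was 0.25, with a 95% interval from -0.11 to 0.60 (adjusted p = 0.360, limma). Without E46 labelled 100 replicate 1 that difference was 0.40 and was called (adjusted p = 0.0328, limma).

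Ccn1 (Cyr61), the sister gene of Ccn2 and likewise an immediate early and YAP-responsive gene, lies at chr3:145646971-145649985 (RefSeq GRCm38.p6). Its promoter is set beside those of the genes that moved, since it holds a TEAD motif and the gene was called in neither line. It is given 5′ to 3′ on the minus strand (RefSeq, GRCm38.p6, chr3:145649986-145650235), and capitals mark GGAATG or its reverse complement CATTCC, the letters that TEAD factors bind.
Ccn1: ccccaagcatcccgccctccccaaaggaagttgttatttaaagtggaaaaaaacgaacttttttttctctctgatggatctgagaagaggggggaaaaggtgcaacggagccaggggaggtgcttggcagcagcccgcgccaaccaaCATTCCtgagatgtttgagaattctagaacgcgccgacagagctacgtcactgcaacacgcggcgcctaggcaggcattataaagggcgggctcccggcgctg
The match began 103 bases before the start, and 12.6% of 32851 promoters hold one. In E46 the controls were at 11.47, 11.59, 11.65 and 11.71 and the arrays labelled 100 at 11.52, 11.84, 11.77 and 11.53. In A2/12 the controls were at 11.14, 11.07, 11.09 and 11.22 and the serotonin arrays at 11.02, 11.37, 10.79 and 11.37. Treated and control arrays overlapped in both lines. The change was 0.06 in E46, with a 95% interval from -0.17 to 0.29, and 0.00 in A2/12, with an interval from -0.23 to 0.23. The line difference was called, with A2/12 controls lower than E46 controls by 0.47. Ccn1 and Ccn2 were thus unlike in both lines, the intervals of Ccn1 ending far above the falls of Ccn2.

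Tnc encodes tenascin-C, a large matrix glycoprotein of developing brain and of injury (chr4:63959785-64047015, RefSeq GRCm38.p6). Its promoter is shown because it was the gene with opposite called responses of large size in the lines. The promoter table has 2 entries for Tnc. The one nearest the outermost start of the gene was used, and the other is not described. The window used lies on the minus strand (RefSeq, GRCm38.p6, chr4:64047016-64047265). It is without capitals, since neither CAGAC, nor GGAATG, nor a CArG-like element was found in it on either strand.
Tnc: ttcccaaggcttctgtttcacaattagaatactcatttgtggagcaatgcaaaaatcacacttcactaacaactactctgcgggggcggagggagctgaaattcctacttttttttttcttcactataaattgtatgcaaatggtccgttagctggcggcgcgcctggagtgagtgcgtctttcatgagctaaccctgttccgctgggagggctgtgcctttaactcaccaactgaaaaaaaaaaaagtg
The E46 controls gave Tnc levels of 10.40, 10.51, 10.52 and 10.48, and the arrays labelled 100 gave 9.58, 9.33, 9.29 and 9.33. The A2/12 controls were at 9.33, 9.13, 9.36 and 9.47, and the serotonin arrays at 11.07, 11.09, 11.13 and 11.20. Treated arrays lay below all controls in E46 and above all controls in A2/12. Tnc fell by 1.09 ± 0.08 in E46 (adjusted p = 1.17e-09, limma) and rose by 1.80 ± 0.08 in A2/12 (adjusted p = 3.10e-13, limma), where it ranked 99 from the highest of 18820 genes. The difference of the responses, 2.89 ± 0.12 (adjusted p = 8.96e-13, limma), ranked 12 from the highest. As a result the order of the lines turned: controls were lower in A2/12 by 1.16, and the A2/12 serotonin arrays were the 4 highest of the series.

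**Figure D2:**
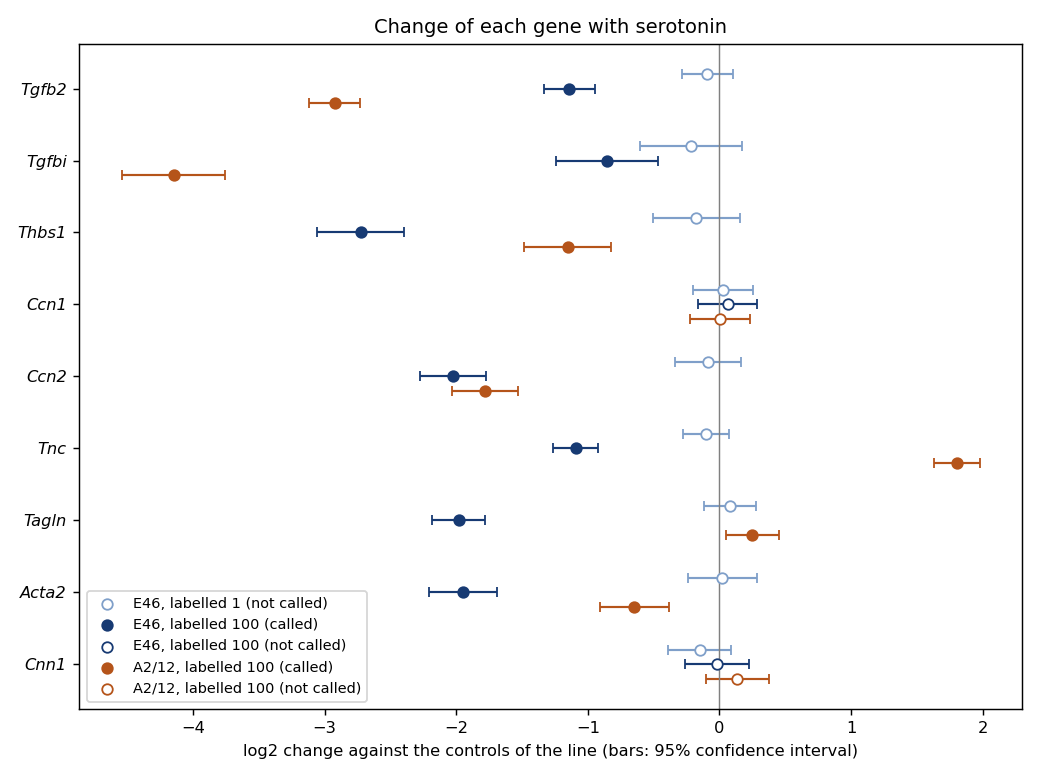
Log2 change of each of the 9 genes with serotonin, for E46 labelled 100, E46 labelled 1 and A2/12 labelled 100, each against the controls of its line; points are estimates, filled where called, and bars their 95% intervals. Tnc lies at -1.09 in E46 labelled 100 and at 1.80 in A2/12, while all 9 intervals of E46 labelled 1 include 0.

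Acta2, smooth muscle alpha actin, is the actin isoform of smooth muscle and of myofibroblasts (chr19:34240336-34255585, RefSeq GRCm38.p6). Its promoter is printed for its SRF motifs, 5′ to 3′ on the minus strand (RefSeq, GRCm38.p6, chr19:34255374-34255623). The window ends at the start used by the promoter table, which again lies inside the outermost span of the gene, and distances are counted from that start. A CArG-like element was searched as CC and GG with 6 bases between them, of which at most 1 was neither A nor T. Capitals mark each such element, GGAATG and CAGAC (or GTCTG, its reverse complement).
Acta2: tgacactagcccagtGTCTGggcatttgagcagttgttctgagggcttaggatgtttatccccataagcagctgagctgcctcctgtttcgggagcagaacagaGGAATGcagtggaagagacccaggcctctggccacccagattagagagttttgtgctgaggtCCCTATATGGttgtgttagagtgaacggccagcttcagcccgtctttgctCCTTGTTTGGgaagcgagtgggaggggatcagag
There were 2 CArG-like elements, CCCTATATGG at 84 and CCTTGTTTGG at 34 bases before that start. An element of this kind is held by 8.59% of the 32851 promoters. GGAATG began at 146 and GTCTG at 235 bases before it.

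The E46 controls read 12.47, 12.62, 12.64 and 12.50 for Acta2, and the arrays labelled 100 read 11.19, 10.43, 10.39 and 10.43. The A2/12 controls read 12.07, 12.08, 12.11 and 12.15, and the serotonin arrays 11.32, 11.50, 11.44 and 11.57. The groups were apart in both lines. Acta2 fell by 1.95 ± 0.13 in E46 (adjusted p = 9.44e-11, limma) and by 0.65 ± 0.13 in A2/12 (adjusted p = 0.000176, limma), and the fall in A2/12 was smaller by 1.30 ± 0.18 (adjusted p = 1.03e-05, limma). E46 replicate 1 was again the highest of its group, and the E46 change without it was -2.14.

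Tagln encodes transgelin (SM22 alpha), an actin binding protein of smooth muscle and fibroblasts (chr9:45929628-45936058, RefSeq GRCm38.p6). In E46 the controls were at 10.28, 10.42, 10.34 and 10.34 and the arrays labelled 100 at 8.44, 8.28, 8.37 and 8.37, a tight fall of 1.98 (adjusted p = 2.62e-12, limma). In A2/12 the controls were at 9.42, 9.49, 9.22 and 9.27 and the serotonin arrays at 9.27, 9.73, 9.60 and 9.81. These groups overlapped, and the rise of 0.25 ± 0.10 was near the threshold (adjusted p = 0.0365, limma). That call was lost with A2/12 fitted alone (adjusted p = 0.113, limma), with quantile normalization (0.0813), when a change of over 1.5-fold was required, with arrays blocked by position number (0.0545), and when any one of A2/12 control replicates 3 and 4 or serotonin replicates 2, 3 and 4 was left out (0.0617 to 0.153). The difference between the lines was called, at 2.23 (adjusted p = 2.35e-10, limma). In E46, Tagln and Acta2 fell by about the same amount, whereas in A2/12 their changes had opposite signs.

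Cnn1, calponin 1, is a marker of differentiated smooth muscle (chr9:22099221-22109221, RefSeq GRCm38.p6). It lay at 3.89 ± 0.17 in E46 controls and 3.87 ± 0.06 in E46 labelled 100, both under the background, and at 4.60 ± 0.17 in A2/12 controls and 4.74 ± 0.20 with serotonin, just above it. The changes were -0.02 in E46 (95% interval -0.26 to 0.22) and 0.14 in A2/12 (adjusted p = 0.394, limma). At a level under the background, a fall of Cnn1 in E46 was not detectable.

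**Figure D3:**
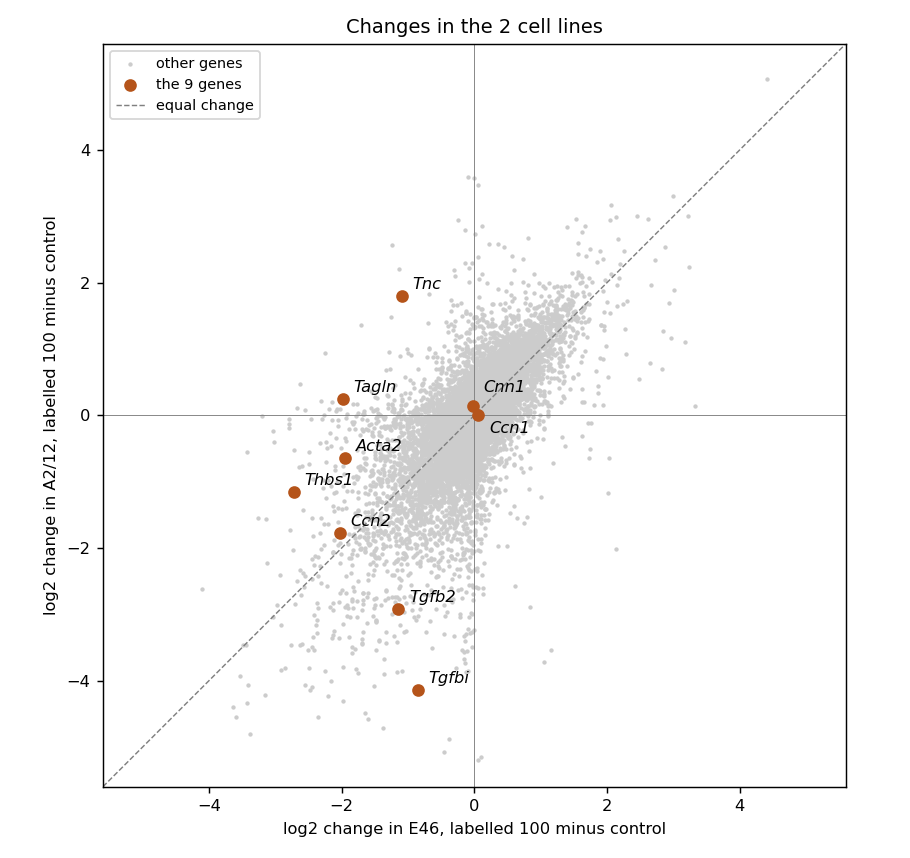
Change of each of the 9 genes with serotonin labelled 100 in E46 (horizontal axis, log2) against that in A2/12 (vertical axis, log2), with the 9 genes in colour and all other genes in grey; the dashed diagonal marks equal changes. Tgfb2 and Tgfbi lie below the diagonal, Thbs1, Acta2, Tagln and Tnc above it, and Ccn2, Ccn1 and Cnn1 near it.

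The difference of the 2 responses was called for 6 of the 9 genes, against 22.0% of all genes (10.9% higher and 11.1% lower). Tgfb2 and Tgfbi fell further in A2/12, Thbs1 and Acta2 fell further in E46, and Tnc and Tagln were higher with serotonin in A2/12 and lower in E46. For Tgfbi the E46 level went only from 5.62 to 4.76, near the background, which left little room for a fall in that line. Between the controls of the lines 8 of the 9 genes were called, against 39.1% of all genes: Tgfbi was higher in A2/12 by 5.31, and Cnn1 was higher too, at 4.60 against an E46 level of 3.89 that lay under the background, so that its size cannot be read. The other 6, namely Tgfb2, Ccn1, Ccn2, Tnc, Tagln and Acta2, were lower by 0.45 to 1.33. The lines shared no row of the scan positions, so that row and line cannot be told apart. Within the one row that held an E46 control and 2 E46 arrays labelled 100, the changes were -1.12 for Tgfb2, -2.50 for Thbs1, -1.97 for Ccn2, -1.02 for Tnc and -1.69 for Acta2. In the A2/12 row of the same kind they were -2.84 for Tgfb2, -3.75 for Tgfbi, -1.17 for Thbs1, -1.66 for Ccn2, 1.61 for Tnc and -0.74 for Acta2. Tgfbi and Tagln were at -0.92 and -1.985 in that E46 row. In the A2/12 row Tagln was at 0.23, with the lower of its serotonin arrays level with the control at 9.27. These values come from 1 control array each, and their directions were those of the whole groups.

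At serotonin labelled 1 in E46, no member was called, and 0 had an unadjusted p below 0.05 in limma. Over all genes 2 were called (0.0106%, or 0.00531% lower and 0.00531% higher) and 2993 had an unadjusted p below 0.05. Without replicate 2 of the arrays labelled 1, 284 genes were called and still 0 of the 9. The changes of the 9 genes ran from -0.22 for Tgfbi, with a 95% interval from -0.61 to 0.17, to 0.08 for Tagln. Set against these arrays in place of the controls, the arrays labelled 100 were again lower in 7 of 9 genes (41.4% of all genes were called and 17.8% lower), for example by 2.55 for Thbs1, 2.06 for Tagln and 1.94 for Ccn2. Both comparisons use the same arrays labelled 100. If the doses of the description were taken, 0 members would be called for 100 and 7 for 1.

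Markers of several cell types changed too, to be read against the 19.3% of all genes that fell in E46 and 21.1% in A2/12. The mean fibroblast marker level per array was 7.97 to 8.09 in E46 controls and 6.45 to 7.03 with serotonin labelled 100, and at least 8.84 in A2/12 controls and 6.97 to 7.44 with serotonin. Of these 9 markers 7 fell in E46, and 6 fell and 1 rose in A2/12, with Col1a1 going from 11.72 to 9.31 and from 11.59 to 8.05. Of 7 astrocyte markers 4 fell in each line and 1 rose in E46, with means of 6.27 to 6.37 in E46 controls and 5.75 to 5.87 with serotonin, and of 5.39 to 5.46 and 4.93 to 5.13 in A2/12. Slc1a3, a glutamate transporter of astrocytes, went from 10.24 to 8.42 in E46. Of 13 neuron markers 3 fell in E46 and 4 in A2/12, near those shares, and 0 rose. Their median change was -0.07 in both lines. Map2, a dendritic microtubule protein, went from 10.43 to 8.64 and from 9.62 to 7.70. The mean smooth muscle marker level per array was 5.05 to 5.27 in E46 controls and 4.83 to 5.01 with serotonin. In A2/12 it was 5.33 to 5.49 and 5.39 to 5.44. Of these 8 markers 4 fell in E46, and 1 fell and 2 rose in A2/12. In bulk RNA, fewer cells that express a gene and less RNA of it per cell cannot be told apart, and the part of these markers in the results was not tested. The mean of the macrophage markers reached 6.27 on A2/12 control replicate 4, and Lyz2 alone reached 9.02 in that group. The mean of the intestinal markers reached 4.73 on E46 control replicate 3. Without these 2 arrays all called members but Tagln in A2/12 (adjusted p = 0.108, limma) were called as before.

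The rest of the TGF-beta system was followed through lists of related genes, read against the shares of all genes called above. Of 23 ligands and latency genes, 18 fell and 1 rose in E46 (median change -0.90), and 18 fell and 1 rose in A2/12 (median -0.81). Tgfb3, another ligand, fell by 2.67 in E46 and 2.50 in A2/12. Tgfb1, the founding ligand, fell by 0.70 and 0.55. Bmp4, a ligand of the related BMP branch, fell by 1.09 and 2.15. Itgb8, a subunit of an integrin that activates latent TGF-beta, fell by 1.02 and 3.25, and Ltbp3, which binds the latent complex, fell by 0.99 and 1.85. Mmp2, a gelatinase, fell by 2.20 and 0.97. Tgfb2 was thus 1 of several ligands of the family that fell in both lines.

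Of 16 measured receptors and SMADs, the transducers, 4 rose and 3 fell in E46 (median 0.15), and 6 rose and 6 fell in A2/12 (median 0.06). Over all genes 20.3% rose and 19.3% fell in E46, and 24.8% rose and 21.1% fell in A2/12, so the E46 counts were near the shares of all genes. With each array centred on its median, 10 rose and 3 fell in E46. Tgfbr1, the type I receptor, was at 0.04 in E46, not called, and rose by 0.29 in A2/12, while Tgfbr3, the accessory receptor betaglycan, was at 0.22, not called, and fell by 0.73. Smad3 fell by 0.31 and 0.32, and Smad4 rose by 0.41 and 0.17. Smad7, the inhibitory SMAD that TGF-beta induces, fell by 0.62 in E46 and rose by 0.47 in A2/12, and these responses differed by 1.09. Tgfbr2 was not analysed here.

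Feedback and direct targets of the TGF-beta and BMP branches mostly fell, 15 of 23 in E46 with 4 higher (median -0.997), and 16 in A2/12 with 7 higher (median -0.72). Id1 and Id3, inhibitors of helix-loop-helix factors, fell by 1.81 and 3.15 in E46 and by 1.80 and 4.21 in A2/12. Pmepa1 and Ldlrad4, which restrain SMAD signalling, fell by 1.31 and 1.83 in E46 and by 0.61 and 2.03 in A2/12, and Cdkn2b, a cell cycle inhibitor induced by TGF-beta, fell by 1.16 and 1.78. Tgif1, a repressor of SMAD targets, and Smurf1, a ubiquitin ligase for SMADs, rose by 1.17 and 0.66 in E46 and by 1.19 and 1.45 in A2/12.

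Among 21 other measured matricellular genes none rose, 14 fell in E46 (median -0.65) and 17 fell in A2/12 (median -1.78). Fbln1 and Fbln5, fibulins of elastic fibres, fell by 1.33 and 1.17 in E46 and by 2.19 and 2.20 in A2/12. Mgp, an inhibitor of calcification, fell by 2.33 and 1.77, and Sparc, a collagen binding protein, by 1.05 and 0.97. Ccn3, another CCN protein, fell by 0.48 in E46 and by 2.33 in A2/12, with a called difference of -1.85. Sparcl1, a relative of Sparc, was below background in E46, and fell in A2/12 from 7.47 to 4.15, a level under the background, so that the fall is only bounded from below. Tnc, which rose in A2/12, was in this respect unlike the other matricellular genes. Ccn1 was called in neither line, and of the 21 others 7 were not called in E46 and 4 in A2/12. No test compared Tnc or Ccn1 with the list. Of 16 receptors for matricellular and TGF-beta family proteins, 12 fell in E46 with 0 higher (median -0.61) and 10 fell in A2/12 with 1 higher (median -0.55). Itga8, a tenascin-C binding integrin subunit, fell by 1.84 and 2.77, and Itgb3 by 1.77 and 0.53, while Cd47, a receptor of thrombospondin-1, fell by 0.30 and 1.39.

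**Figure D4:**
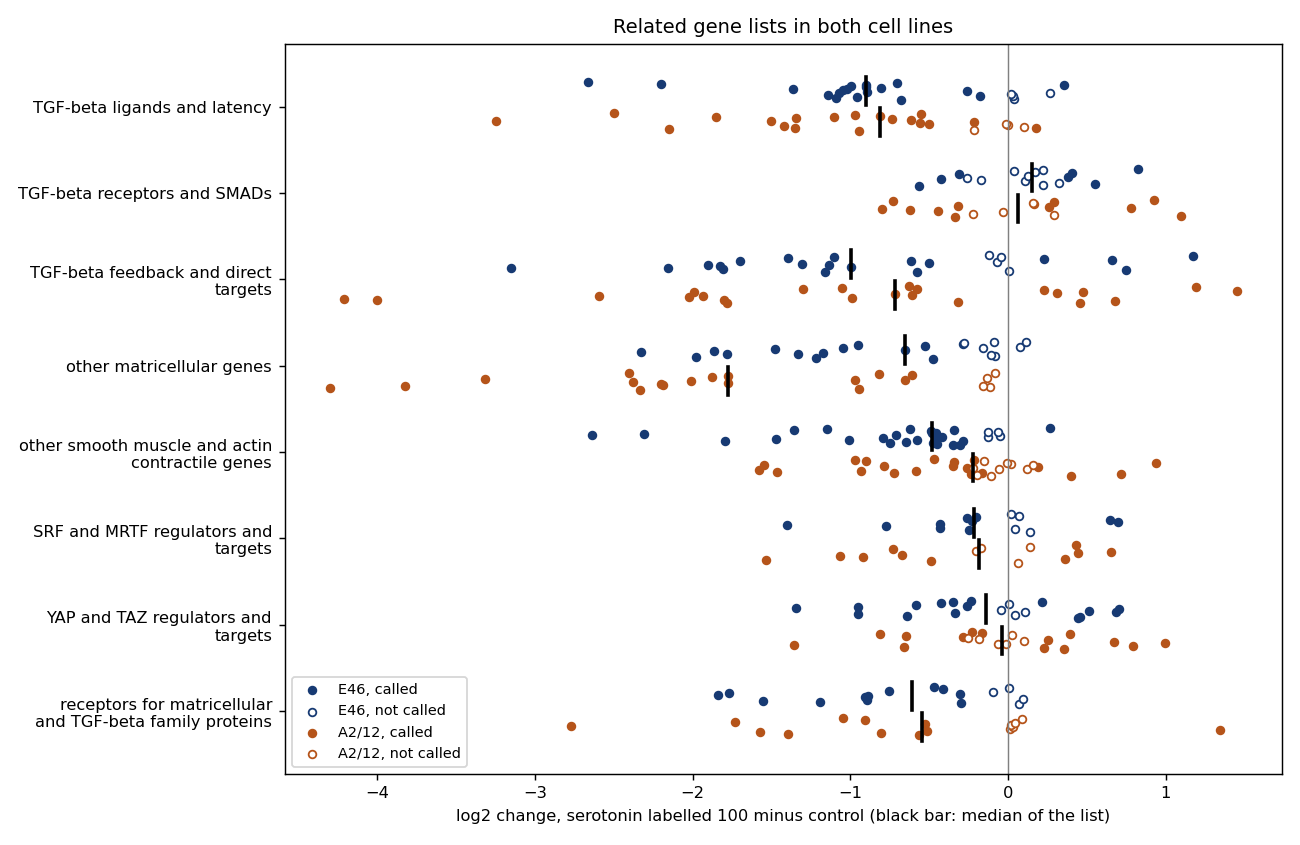
Log2 changes with serotonin labelled 100 of the genes of each related list, in E46 and in A2/12; each point is a gene, filled where called, and bars are list medians. The medians of the ligand and of the other matricellular genes lie at -0.90 and -0.65 in E46 and at -0.81 and -1.78 in A2/12.

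Other contractile genes fell in E46 in 24 of 29 cases with 1 higher (median -0.49), and in A2/12 in 16 with 4 higher (median -0.22; 10 fell and 6 rose after median centring). The difference of responses was called for 18 of them, 16 higher and 2 lower in A2/12, with a median of 0.33. Over all genes it was called for 22.0% (10.9% higher and 11.1% lower). Mylk, the myosin light chain kinase, fell by 2.31 in E46 and 1.55 in A2/12, and Cnn2, a calponin of non-muscle cells, by 1.79 and 1.47. Csrp2, a LIM protein of smooth muscle, fell by 1.47 and 1.58. The differences of Tagln and Acta2, 2.23 and 1.30, had the sign of those 16 genes.

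The regulators were followed in the same way, with 19.3% of all genes lower and 20.3% higher in E46, and 21.1% and 24.8% in A2/12. Of 14 measured SRF and MRTF regulators and targets, 8 fell and 2 rose in E46 (4 fell after median centring), and 6 fell and 4 rose in A2/12. Srf was at 0.02 in E46, not called, and rose by 0.43 in A2/12. Mrtfa, its coactivator, fell by 0.26 and 0.73. Of 20 YAP and TAZ genes, 10 fell and 6 rose in E46, and 7 fell and 7 rose in A2/12 (median -0.04, or 0.12 after median centring). Yap1 fell by 0.23 in both lines and Wwtr1, which encodes TAZ, by 0.35 and 0.16. Nt5e fell by 1.34 in E46 and was at -0.19 in A2/12, not called, and Ankrd1 was at 0.04, not called, and rose by 0.79.

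The genes closest in pattern were found by the root mean square difference of the 5 group means, each gene centred on its own mean, over 12649 genes. For Tgfb2 these were Etv1 (0.133) and Sprr1a (0.192), and for Tgfbi Sema3d (0.202) and Stc1 (0.274). Thbs1 was nearest to Emp3 (0.252) and Mgp (0.270), and Ccn2 to Gprin3 (0.095) and Mylk (0.121). Tnc had Nabp1 (0.287) and Enc1 (0.308), Tagln had Gadd45g (0.226) and Ccnd1 (0.231), and Acta2 had Mical2 (0.148) and Sytl5 (0.185). Ccn1 (Tmx1 at 0.017, Haus1 at 0.026) and Cnn1 (Fam102a at 0.024, Nfkbia at 0.038) varied little, so that many genes lie near them. None of the 9 genes was among the 2 nearest of another. Mgp and Mylk were the only neighbours found in the related lists.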

How the data were processed

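Gene expression of 20 samples was measured on Affymetrix gene arrays. The deposited values are log2 levels that the authors computed by RMA, per the submitters' processing notes; RMA subtracts background, normalizes the arrays to each other and combines the probes of a probe set. Of 35556 probe sets, 21218 carry 1 gene symbol in the array's annotation, 1881 several and 12457 none. Those with 1 symbol were used, with the highest mean kept for 1386 genes with several probe sets. Entrez IDs matched 21185 of them to RefSeq, and no symbol needed an update. Coordinates and promoters are RefSeq's (GRCm38.p6), and the RMA version and the table's build are not given in the sources used. For promoters, 6 of the 9 genes had a promoter entry.

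The 5 group means were estimated in one limma 3.58.1 fit (R 4.3.3, 15 residual degrees of freedom, eBayes, Benjamini-Hochberg over 18820 genes, called at an adjusted p below 0.05). Intervals are at 95%. The code was tested on simulated data, and matplotlib 3.10.9 (Python 3.11.15) drew the figures. The background level used 1159 receptor genes.

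The 9 genes and the related lists were chosen with earlier results of these data known. Genes named beside the 9 are those of each list with the smallest adjusted p in either line (up to 4 each), main ligands, receptors, SMADs and coactivators, the 2 genes nearest in pattern to each of the 9, and cell type markers. In all, 17 alternative settings were run beside leaving out each of 20 arrays. The list counts under median centring, under quantile normalization, without E46 labelled 100 replicate 1 and without 2 control arrays were added after seeing the data.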

Additional observations from a re-analysis of the deposited data

Results flagged for a closer look

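In 45 sets of 4 arrays, 1 for each of the 9 genes in each group, 5 had an array that stood apart from the other 3, and chance gives about 1 in 20. For E46 labelled 100 replicate 1 was the highest of its group for Thbs1 (10.12, others 9.10 to 9.25), Tnc (9.58, others 9.29 to 9.33) and Acta2 (11.19, others 10.39 to 10.43). In A2/12, control replicate 2 was the lowest for Tgfb2 (8.49, others 8.74 to 8.76), and serotonin replicate 3 was the lowest for Thbs1 (10.81, others 11.20 to 11.25).

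The response to serotonin labelled 100 differed between the lines, by a test of the difference itself in limma, for 6 genes. Given as A2/12 minus E46, the difference was -1.78 for Tgfb2, -3.29 for Tgfbi, 1.57 for Thbs1, 2.89 for Tnc, 2.23 for Tagln and 1.30 for Acta2. That of Tgfbi is limited by E46 levels near the background.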

How the results depend on the processing

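With the doses of the description, 0 members were called for E46 labelled 100 and 7 for E46 labelled 1, and all-gene counts were 2 and 7451, with 7435 for the difference of responses. Signs turned under that setting for Tagln (0.08) and Acta2 (0.023) at labelled 100 and for Tagln (-1.98) and Acta2 (-1.95) at labelled 1. They also turned for labelled 100 against 1, at 1.05 for Tgfb2, 0.64 for Tgfbi, 2.55 for Thbs1, 1.94 for Ccn2, 1.00 for Tnc, 2.06 for Tagln and 1.97 for Acta2. In the difference of responses Thbs1 was at -0.97, Ccn2 at -1.70 and Acta2 at -0.67. No sign turned under any other setting for a called member. With a fold threshold of 1.5, 4 members were called between the controls (Tgfb2, Ccn1, Acta2 and Cnn1 lost their calls), Tgfbi lost its call in E46 labelled 100 against the controls and against labelled 1, Tagln and Acta2 lost theirs in A2/12, and all-gene counts were 1546 for E46 labelled 100, 0 for labelled 1, 1475 for labelled 100 against 1, 2606 for A2/12, 790 for the difference and 1744 for the controls. Leaving out 1 array gave 7 members called for E46 labelled 100, 0 for labelled 1, 7 for labelled 100 against 1, 6 to 7 for A2/12, 6 to 7 for the difference and 8 for the controls. The all-gene count of labelled 1, 2 in the full set, was 284 without its replicate 2, 4 without its replicate 4, and 0 or 1 under several other settings; the cause was not tested. No label says that equal replicate numbers pair the samples. Deviations from the group means were correlated for 40 pairs of arrays with equal replicate number. The correlations ran from -0.55 to 0.41, and 14 were above 0.1. Arrays of unequal number were not compared, so these values do not settle whether the samples are paired. With the replicate number as a block 7 members were called in E46 labelled 100 and 7 in A2/12, and 7468 and 8658 genes in all. With the position number as a block 7 and 6 were called, Tagln being lost in A2/12 (adjusted p = 0.0545, limma). Of member values under the alternatives, 1323 counted as the same, 23 lost the call, 7 gained it, 14 turned and 19, without a test, moved by more than the spread. For members not called, counting as the same did not require an equal sign. The change of Cnn1 in E46 labelled 100 ran from -0.077 to 0.032 when 1 array was left out. Precision is limited by 4 arrays a group and, for Cnn1 and Tgfbi in E46, by levels near background.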
